A study of Mus musculus with 12 samples.

Results

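Mouse embryonic stem cells (ESCs) carrying the Oct4 C48S change were compared with wild-type (WT) ESCs after exposure to retinoic acid (RA), at the time their titles give as day 2. Oct4 is the protein of the gene Pou5f1, and C48S names a cysteine-to-serine change in it. The comparison was chosen by its titles: 3 libraries of the clone Oct4C48S#46 and 3 libraries of the WT line, both from the Bl/6J line and both at RA day 2, out of 12 libraries in the series. The other 6 libraries were undifferentiated cells of the same lines, 3 of each, grown with the MEK inhibitor PD03259010 at 1 μM, the GSK3b inhibitor CHIR99021 at 3 μM and ascorbic acid. For differentiation the medium lacked LIF and held RA at 1.5 mg/L. Whether the inhibitors and ascorbic acid were kept during RA is not given in the labels.

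Several features of the labels limit the comparison. All C48S libraries come from 1 clone, number 46, so the amino acid change and any other difference of that clone cannot be told apart. The titles and the treatment protocol say day 2 for every RA library, but a separate treatment entry runs from day 2 to day 4 over the WT libraries and from day 5 to day 7 over the C48S libraries. The titles were followed, and whether the entry counts days was not tested. The labels do not give separate cultures for the 3 libraries of a group. The p-values therefore rest on the spread between these libraries alone, and that spread may be technical. The counts are from bulk RNA, in which fewer cells of a type and less RNA per cell cannot be told apart.

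Retinoic acid is a vitamin A derivative that enters the nucleus and binds heterodimers of retinoic acid receptors (Rara, Rarb, Rarg) and retinoid X receptors on DNA. In ESCs it ends self-renewal: Oct4, Nanog and their partners are turned off, while Hox genes and enzymes that break RA down are turned on. Oct4 binds DNA together with Sox2 at composite elements near many pluripotency genes, and its dose is known to steer ESCs between self-renewal and the first lineages.

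A total of 17940 of 55416 genes passed the filter on low counts and were tested. The RA libraries held 8678088 to 11954255 counted reads and the undifferentiated libraries 10084356 to 13597098. Levels are CPM, the reads of a gene scaled to a common library total, a difference is C48S minus WT on the log2 scale with its standard error (SE), and a gene is called when edgeR's quasi-likelihood test gave a Benjamini-Hochberg adjusted p under 0.05. Within either RA group the log2 levels correlated at 0.99 or more, and between the groups at 0.944 to 0.946. One undifferentiated C48S library, replicate 3, stood apart from the others of its group. The number of changed differences is therefore also given without it, and the flagged changes near the end were also tested without it. All 12 libraries were fitted together, so it also entered the spread used at RA day 2. Without it, 5578 of 18539 genes tested were higher in C48S at RA day 2 and 5159 were lower. With it, 5168 and 4617 of 17940 were. Levels and differences before RA include it. Chromosomes 6, 8 and 11 were shifted as a whole between the lines. The median difference at RA day 2 was 0.63 over 659 protein-coding genes of chromosome 6, 0.58 over 739 genes of chromosome 8 and -0.48 over 1167 genes of chromosome 11, and 6 of 8 Y-linked genes were lower in C48S. The shifts were 0.58, 0.52 and -0.53 before RA, and chromosome-wide shifts and the C48S change cannot be told apart for genes of these chromosomes. The chromosome is given below for only some genes, so a gene named without one may also lie on a shifted chromosome.

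At RA day 2, 5168 genes were higher in C48S (28.8% of those tested) and 4617 were lower (25.7%). A difference of 2-fold or more was seen for 1108 higher genes (6.18%) and 1467 lower genes (8.18%). Each count of called genes in a gene group stands against these shares of all genes. A group's count is over the members that passed the filter on low counts, and most groups kept all or nearly all of theirs; the group of oocyte genes kept 8 of 22, with 5 higher and 2 lower. The median difference over all tested genes was 0.02.

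Most genes of the pluripotency network were higher in C48S. Of 20 genes of naive pluripotency, 15 were higher in C48S, 1 was lower, and the median difference was 1.23. It was 1.83 over the 15 genes off chromosomes 6, 8, 11 and Y. Of 16 genes of general pluripotency, 13 were higher and 2 lower, with a median of 0.63. Summed over the naive list, the WT libraries reached 959.8 to 978 CPM and the C48S libraries 1888 to 1944 CPM.

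Pou5f1 itself, on chromosome 17, 35816915 to 35821669 (GRCm39), stood at 24.1, 22.04 and 22.8 CPM in the WT libraries and 71.5, 68.3 and 65.1 CPM in the C48S libraries. The lowest C48S library, at 65.1 CPM, was above the highest WT library, at 24.1 CPM. The difference was 1.57 ± 0.10 (adjusted p = 7.99e-11). Before RA its level was 585 ± 5.10 CPM (SD, n = 3) in WT and 557 ± 83.4 CPM (SD, n = 3) in C48S, which did not pass the test (-0.07, adjusted p = 0.411). Counts of the gene do not show the C48S codon, so they do not check the genotype.

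The partners of Oct4 were higher by larger steps. Sox2, which binds DNA beside Oct4, stood at 15.8, 13.1 and 13.8 CPM in the WT libraries and 87.2, 77.8 and 82.3 CPM in the C48S libraries. Nanog, a homeodomain factor of the core network, stood at 16.4, 15.95 and 17.6 CPM in the WT libraries and 94.4, 95.02 and 93.3 CPM in the C48S libraries. Esrrb, an orphan nuclear receptor of the naive state, stood at 13.6, 11.5 and 12.2 CPM in the WT libraries and 122, 118 and 109 CPM in the C48S libraries. No library of one group reached the range of the other for any of the 3 genes. Their differences were 2.54 ± 0.07, 2.50 ± 0.06 and 3.23 ± 0.07, or 5.82-fold, 5.67-fold and 9.39-fold higher (adjusted p = 1.11e-25, 2.16e-27 and 5.77e-29). Nanog lies on chromosome 6, whose median shift was 0.63. The other two lie on chromosomes 3 and 12, where the medians were 0.05 and -0.05.

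Klf4, a zinc finger factor downstream of LIF, stood at 18.96, 16.7 and 17.0 CPM in the WT libraries and 128, 113 and 118 CPM in the C48S libraries, a difference of 2.77 ± 0.07. Tdh, the threonine dehydrogenase that marks mouse ESC metabolism, stood at 1.45, 0.858 and 0.977 CPM in the WT libraries and 10.2, 10.7 and 9.59 CPM in the C48S libraries, a difference of 3.22 ± 0.16. These levels were far below those of undifferentiated cells of either line, where Tdh reached 662 ± 16.6 CPM in WT and 857 ± 20.9 CPM in C48S (SD, n = 3). Tfcp2l1, Klf5, Tbx3 and Zfp42 were also higher, by 0.69, 0.77, 0.98 and 1.36. Prdm14, a repressor that guards the naive state, was higher by 2.13 ± 0.35 at levels of at most 2.38 CPM.

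Not every pluripotency gene was higher. Dppa5a was lower (-0.33) (adjusted p = 0.0464) but not with the replicate number as a block (adjusted p = 0.0577) or without any 1 of the RA libraries (adjusted p = 0.0541 to 0.113), and it has near-identical copies that the counting may split. Dppa2 was lower (-0.48 ± 0.06) while its neighbour Dppa4 was higher by 0.71 ± 0.06. Fbxo15, an Oct4 and Sox2 target in ESCs, was lower (-0.78 ± 0.07). Klf2 (-0.13) and Lin28a (0.09), an RNA-binding protein that blocks let-7, did not pass the test.

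The bases before the start of Nanog are shown because they hold the composite element at which Sox and Oct factors bind, here searched as ATTGT or TTTGT followed by any base and then ATGC, on both strands (RefSeq, GRCm38.p6, plus strand, chr6:122707239-122707488). The 5′ to 3′ run is in lower case with the matched bases in capitals, on the opposite strand, from 72 to 63 bases before the start. Of 32851 windows of 300 bases around gene starts, 0.499% hold such a match. A match is a description of letters and not of binding.
Nanog: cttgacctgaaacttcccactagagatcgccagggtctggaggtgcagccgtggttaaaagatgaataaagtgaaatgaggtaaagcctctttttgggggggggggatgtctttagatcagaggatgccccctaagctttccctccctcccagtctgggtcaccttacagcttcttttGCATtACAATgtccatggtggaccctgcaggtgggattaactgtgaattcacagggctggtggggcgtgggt

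Formative and primed genes, which mark the step after the naive state, were higher more often than lower. Of 11 tested, 6 were higher and 2 lower. Etv4, which also reads out ERK, was higher by 3.09, Zic2 by 1.07, Dnmt3a by 0.79 and Grhl2 by 0.99. Dnmt3b was lower (-0.21) and Sall2 (-0.48). Fgf5 and Otx2 were not tested: Fgf5 had 5 to 13 reads in the WT libraries and at most 1 in the C48S libraries, and Otx2 at most 5 in any RA library.

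**Figure D1:**
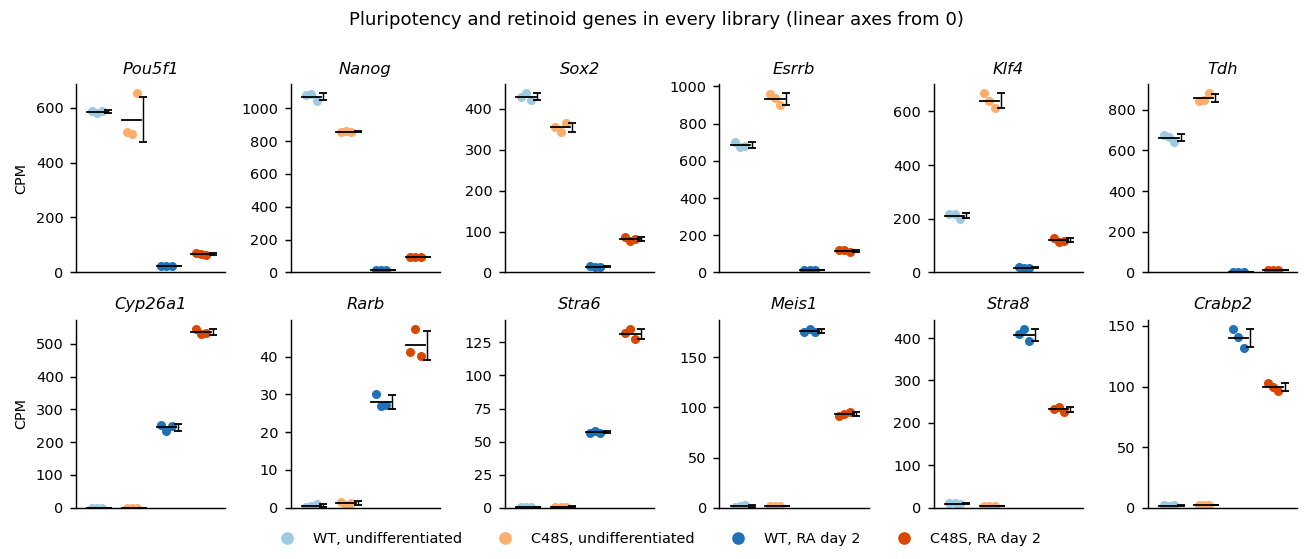
Levels of 12 pluripotency and retinoid genes in CPM (vertical axes, linear from 0) in the 12 libraries; each point is a library, the line is the mean of 3 and the bar is 1 SD. At RA day 2 the C48S points (dark orange) stand above the WT points (dark blue) for Pou5f1, Nanog, Sox2, Esrrb, Klf4, Tdh, Cyp26a1, Rarb and Stra6, and below them for Meis1, Stra8 and Crabp2.

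Genes of the retinoid pathway moved in both directions: of 29 tested, 9 were higher, 13 lower and 7 not called, with a median of -0.09. Cyp26a1, the enzyme that oxidises RA and a direct RA target, was near 0 in undifferentiated cells (0.106 ± 0.105 CPM in WT and 0.134 ± 0.0693 CPM in C48S, SD, n = 3). At day 2 it stood at 253, 234 and 250.1 CPM in the WT libraries and 546, 530.0 and 532 CPM in the C48S libraries. Every C48S library lay above 500 CPM and every WT library below 300 CPM, a difference of 1.13 ± 0.05 (adjusted p = 5.23e-20). Its relative Cyp26b1 was higher by 0.47 ± 0.05.

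Among receptors and uptake, Rarg stood at 53.5, 53 and 52.0 CPM in the WT libraries and 153, 145 and 151 CPM in the C48S libraries. Rarb, the receptor that RA induces, stood at 30.1, 26.9 and 27.1 CPM in the WT libraries and 41.2, 47.4 and 40.3 CPM in the C48S libraries. Stra6, a membrane receptor for retinol carried by its binding protein, stood at 56.2, 57.9 and 56.8 CPM in the WT libraries and 132, 135 and 127 CPM in the C48S libraries. In each case the groups did not overlap, and the differences were 1.5 ± 0.05, 0.62 ± 0.10 and 1.21 ± 0.07. Dhrs3, which turns retinal back to retinol, was higher by 0.25. Cdx1, a caudal-type factor that is a target of both RA and Wnt, was higher by 1.90 ± 0.06, from 91.7 ± 2.696 to 343 ± 2.53 CPM (SD, n = 3).

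Other RA-induced genes were lower. Meis1, a homeodomain partner of Hox proteins, stood at 175, 179 and 175 CPM in the WT libraries and 91.8, 93.4 and 95.5 CPM in the C48S libraries. Stra8, the gene that RA induces at the entry into meiosis, stood at 408, 422 and 393 CPM in the WT libraries and 233, 238 and 225 CPM in the C48S libraries. Crabp2, which carries RA to the nucleus, stood at 147, 141 and 132 CPM in the WT libraries and 103, 99.9 and 96.6 CPM in the C48S libraries. No C48S library reached the WT range, and the differences were -0.91 ± 0.07, -0.81 ± 0.05 and -0.49 ± 0.06. All 3 genes were higher at day 2 than before RA in both lines, Meis1 by 6.56 in WT and 5.84 in C48S. Meis1 lies on chromosome 11 and Stra8 on chromosome 6.

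The bases before the starts of Cyp26a1 and Rarb are shown because each holds a retinoic acid response element with half-sites 5 bases apart within 250 bases of its start. The search took any pair of AGGTCA or AGTTCA or GGGTCA or GGTTCA in the same orientation, on both strands; 0.0974% of the 32851 windows hold a match, and 0.268% hold a pair 2 bases apart. Both runs are RefSeq sequence (GRCm38.p6), 5′ to 3′ along the gene, with the half-sites in capitals. Cyp26a1 is on the plus strand at chr19:37697558-37697807 and its match reads on the opposite strand, from 32 to 16 bases before the start. Rarb is on the minus strand at chr14:16575477-16575726 and its match lies from 53 to 37 bases before the start.
Cyp26a1: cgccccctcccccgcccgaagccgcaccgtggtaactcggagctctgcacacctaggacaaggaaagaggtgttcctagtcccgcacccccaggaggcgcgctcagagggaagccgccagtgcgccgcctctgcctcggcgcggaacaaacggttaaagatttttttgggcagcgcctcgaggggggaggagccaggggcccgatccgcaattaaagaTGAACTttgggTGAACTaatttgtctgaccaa
Rarb: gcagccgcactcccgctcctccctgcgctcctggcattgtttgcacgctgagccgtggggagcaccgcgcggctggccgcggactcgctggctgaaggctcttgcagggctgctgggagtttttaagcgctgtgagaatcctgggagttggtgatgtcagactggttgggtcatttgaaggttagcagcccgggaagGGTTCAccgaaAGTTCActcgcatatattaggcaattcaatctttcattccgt

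Hox genes, which give cells their position along the body axis, were higher on balance. Of 39 tested, 24 were higher and 6 lower, with a median of 0.72. The 4 clusters differed from one another. In the HoxA cluster on chromosome 6 all 11 genes were higher, with a median of 1.93. In the HoxB cluster on chromosome 11, 1 of 10 was higher and 4 were lower, with a median of -0.32. In the HoxC cluster on chromosome 15, 7 of 9 were higher and 2 lower, with a median of 0.85. In the HoxD cluster on chromosome 2, 5 of 9 were higher and none lower, with a median of 0.59. The first 2 clusters lie on chromosomes whose genes were shifted in the same direction, by medians of 0.63 and -0.48. Off the shifted chromosomes, 12 of 18 Hox genes were higher and 2 lower.

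The genes numbered 9 to 13, which are turned on late and towards the tail, were set apart from those numbered 1 to 8 after the values were seen, and the difference between them was not tested. Their median was 4.29 against 1.92 in HoxA, 1.12 against 0.06 in HoxC and 1.47 against 0.41 in HoxD, but -0.60 against -0.11 in HoxB. Hoxa9 stood at 8.70, 9.61 and 9.38 CPM in the WT libraries and 217, 219.9 and 218 CPM in the C48S libraries. Hoxa10 stood at 3.21, 4.12 and 4.30 CPM in the WT libraries and 67.2, 62.8 and 59.7 CPM in the C48S libraries. Hoxa11 stood at 0.518, 0.343 and 0.293 CPM in the WT libraries and 9.84, 11.2 and 8.80 CPM in the C48S libraries. The C48S libraries were far above the WT libraries for all 3 genes, with differences of 4.56 ± 0.08, 4.02 ± 0.14 and 4.66 ± 0.32. On unshifted chromosomes, Hoxc10 had a difference of 2.48 ± 0.17, Hoxd10 of 1.94 ± 0.43 and Hoxd9 of 1.47 ± 0.15. Not all late genes were far higher: Hoxa13, at 0.72, had the smallest difference of its cluster, and Hoxd11 was not called (-0.43). Without C48S RA replicate 3 the Hoxa13 value was 0.47 and was no longer called (adjusted p = 0.131), and the call of Hoxd13, at 0.44, was lost when any RA library was left out. Hoxb1, an early RA-responsive gene, stood at 129.9, 119 and 136 CPM in the WT libraries and 132, 138 and 127 CPM in the C48S libraries, groups that overlap (0.05 ± 0.06, adjusted p = 0.547). Hoxb4 was lower (-0.87), Hoxb9 (-0.52) and Hoxb13 (-0.68).

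Cdx2, a caudal-type factor of trophoblast and the posterior body that acts upstream of Hox genes, stood at 1.87, 3.26 and 3.71 CPM in the WT libraries and 40.3, 39.2 and 34.9 CPM in the C48S libraries. Every C48S library was above 30 CPM and every WT library below 4 CPM, a difference of 3.67 ± 0.16 (adjusted p = 2.01e-20). Before RA the order was opposite, with 5.70 ± 0.785 CPM in WT and 0.523 ± 0.323 CPM in C48S (SD, n = 3; -3.42, adjusted p = 1.35e-11). Nkx1-2, a homeobox gene of the posterior epiblast, stood at 0.207, 0.429 and 0.195 CPM in the WT libraries and 6.69, 7.29 and 5.63 CPM in the C48S libraries, a difference of 4.46 ± 0.32. Wnt3a was higher by 2.57 ± 0.17, from 2.28 ± 0.121 to 13.6 ± 0.0347 CPM (SD, n = 3).

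No germ layer list moved as a whole. Of 28 neuroectoderm genes, 7 were higher and 8 lower, near the background shares. Neurog1, a proneural factor, stood at 0.414, 0.257 and 0.684 CPM in the WT libraries and 11.8, 12.8 and 10.8 CPM in the C48S libraries, and Gsx1, a homeodomain factor of neural progenitors, was at 0 to 0.0858 CPM in WT and 1.31, 1.22 and 1.11 CPM in C48S. Sox1, an early neural factor, was higher by 2.07 ± 0.18. Against these, Pax6, a neural and eye factor, was lower (-1.53 ± 0.20), Nes, an intermediate filament of neural progenitors, (-1.22 ± 0.08), and Dll1, a Notch ligand, (-1.16 ± 0.17).

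Of 24 mesoderm and primitive streak genes, 9 were higher and 5 lower. Tcf15, a factor of epiblast exit and paraxial mesoderm, stood at 4.04, 4.20 and 2.44 CPM in the WT libraries and 38.2, 40.9 and 38.5 CPM in the C48S libraries. Eomes, a T-box factor of streak and trophoblast, stood at 5.60, 5.75 and 6.54 CPM in the WT libraries and 22.8, 23.8 and 18.5 CPM in the C48S libraries. Kdr, the VEGF receptor of early mesoderm, was lower (-2.18 ± 0.33), and Meox1, a factor of somites, (-2.68 ± 0.27). Of 27 endoderm genes, 12 were higher and 8 lower. Gata6 and Gata4, factors of primitive endoderm, were higher by 0.66 and 0.49, while Sox17 (0.23) and Sox7 (0.37) did not pass the test. Rhox5, an X-linked homeobox gene of extraembryonic endoderm, stood at 91.6, 92.3 and 90.6 CPM in the WT libraries and 9.91, 9.73 and 8.88 CPM in the C48S libraries, a difference of -3.27 ± 0.09. Matrix products of parietal endoderm went both ways. Sparc and Lamb1 were lower (-0.68 and -0.57), while Col4a1, Col4a2 and Lamc1 were higher by 0.73, 0.50 and 0.44. Lama1 did not pass the test (-0.14).

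Of 14 keratin genes tested, 8 were lower in C48S, 1 was higher and 5 did not pass the test. Krt8 and Krt18 of simple epithelium were among the lower ones. The keratin count was not repeated off the shifted chromosomes. On chromosome 11, 70.1% of protein-coding genes averaging at least 1 CPM were lower. Krt42, the higher one, had a difference of 1.45 at under 4 CPM, and it is named here after its value was seen. Krt18 stood at 338, 347 and 337 CPM in the WT libraries and 111, 116 and 109 CPM in the C48S libraries. Krt19 stood at 298, 283 and 284 CPM in the WT libraries and 48.1, 49.3 and 48.9 CPM in the C48S libraries. Krt8 stood at 164, 156 and 156 CPM in the WT libraries and 91.4, 89.2 and 81.9 CPM in the C48S libraries. The groups did not overlap, and the differences were -1.60 ± 0.07, -2.56 ± 0.07 and -0.86 ± 0.07; Krt7 was lower (-1.11). Krt19 lies on chromosome 11, and Krt18, Krt8 and Krt7 on chromosome 15, where the median was 0.07. In undifferentiated cells these 4 were at most 11.6 ± 1.93 CPM (SD, n = 3) on average. Other genes of the epithelial list were higher, among them Cldn4 by 1.32, Epcam by 0.67 and Cldn3 by 1.26, and over the 35 genes 15 were higher and 11 lower. Cdh1, the epithelial cadherin, was higher by 0.67, and Vim, the mesenchymal intermediate filament, was lower (-1.03), while Fn1, the fibronectin gene, was higher by 0.93. Of 19 genes of epithelial-mesenchymal transition, 8 were higher and 6 lower. Off the shifted chromosomes these counts were 6 and 5 of 14.

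Of 27 trophoblast genes, 12 were higher and 10 lower. Beside Cdx2 and Eomes, Gata2 was higher by 1.05 and Plet1 by 1.78. The keratins Krt8, Krt18, Krt7 and Krt19, given above, are also members of this list and were lower. Gata3 did not pass the test (0.11). Peg10, an imprinted gene of retrotransposon origin needed for the placenta, was among the most abundant transcripts, at 8582, 8689 and 8445 CPM in the WT libraries and 5661, 5706 and 5583 CPM in the C48S libraries, and was lower (-0.60 ± 0.05) while lying on chromosome 6, most of whose genes were higher.

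Germline and meiosis genes were split, 14 higher and 9 lower of 32. Rec8, the meiotic cohesin that RA induces beside Stra8, stood at 487, 481 and 478 CPM in the WT libraries and 194, 207 and 202 CPM in the C48S libraries. Dazl, a germ cell regulator of translation, stood at 35.4, 32.8 and 35.5 CPM in the WT libraries and 7.99, 8.51 and 6.97 CPM in the C48S libraries. Both were lower without overlap (-1.26 ± 0.05 and -2.15 ± 0.10), and Smc1b, another meiotic cohesin, was lower (-2.05 ± 0.17). Kit, the receptor of stem cell factor, was higher by 0.90, Tfap2c by 0.87 and Prdm1 by 0.94. Rhox2a, an X-linked reproductive homeobox gene, had 77 reads over the 3 WT libraries and 0 in C48S, which is at least 29.6-fold lower with 3 reads over the group as the floor.

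Genes of the 2-cell-like state, a rare ESC state that resembles the early cleavage embryo, were lower without exception: 21 of 21 were lower, 20 of them by 2-fold or more, with a median of -2.84. Zscan4d stood at 102, 117 and 108 CPM in the WT libraries and 19.2, 18.7 and 16.5 CPM in the C48S libraries. Usp17le stood at 134, 129 and 129 CPM in the WT libraries and 14.8, 12.6 and 11.8 CPM in the C48S libraries. Tcstv1 stood at 15.96, 18.3 and 14.9 CPM in the WT libraries and 1.31, 1.87 and 1.27 CPM in the C48S libraries. No C48S library reached the WT range for any of them. The 6 Zscan4 genes had differences from -2.62 to -2.42 and the 5 Usp17l genes from -3.78 to -2.84. These families are near-identical copies, so reads may be split between members, and their sums are the safer measure: Zscan4a to Zscan4f summed to 429, 439 and 416 CPM in WT and 71.7, 77.5 and 70.2 CPM in C48S. Before RA the same list had a median of -2.93, with 17 of 21 lower (28.1% of all genes were).

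Imprinted genes held some of the widest differences. Over 44 tested, 13 were higher and 20 lower, 9 of these by 2-fold or more. At the Dlk1-Dio3 locus, the maternally expressed noncoding RNAs were far lower in C48S. Meg3 (chromosome 12, 109506884 to 109538160, GRCm39) stood at 564, 509.8 and 596 CPM in the WT libraries and 14.6, 15.7 and 14.98 CPM in the C48S libraries. Rian (chromosome 12, 109570242 to 109628150) stood at 810.0, 790.0 and 822 CPM in the WT libraries and 16.1, 17.4 and 15.5 CPM in the C48S libraries. Mirg (chromosome 12, 109696198 to 109715894), the host of a large miRNA cluster, stood at 98.1, 85.2 and 111 CPM in the WT libraries and 1.84, 1.12 and 1.66 CPM in the C48S libraries. The lowest WT library was above 80 CPM for each of them, and no C48S library exceeded 18 CPM. The differences were -5.21 ± 0.08, -5.63 ± 0.07 and -5.96 ± 0.20, or 36.9-fold, 49.5-fold and 62.1-fold lower. Dlk1, the paternally expressed gene of the same locus, stood at 103, 100.1 and 95.8 CPM in the WT libraries and 91.6, 92.5 and 99.6 CPM in the C48S libraries and did not pass the test (-0.08 ± 0.07, adjusted p = 0.347). Before RA the 3 RNAs were already lower, with differences of -2.17, -2.68 and -2.87. From before RA to day 2, Meg3 rose in WT by 2.89 on the log2 scale, whereas in C48S it stood at 16.7 ± 1.501 CPM before RA and 15.1 ± 0.566 CPM at day 2 (SD, n = 3), which did not pass the test (-0.14, adjusted p = 0.236).

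At the H19-Igf2 locus on chromosome 7 the 2 genes moved apart. H19, the maternally expressed noncoding RNA, stood at 6679, 7091 and 6413 CPM in the WT libraries and 328, 346 and 352 CPM in the C48S libraries. Igf2, the paternally expressed growth factor, stood at 5.91, 4.20 and 4.30 CPM in the WT libraries and 76.2, 75.7 and 74.3 CPM in the C48S libraries. Neither pair of groups overlapped, and the differences were -4.30 ± 0.10 and 3.98 ± 0.11. Before RA, H19 reached 12.1 ± 2.63 CPM in WT cells and 7.48 ± 2.06 CPM in C48S cells (SD, n = 3), and the difference between the lines grew with RA (change in the difference -3.64 ± 0.23, adjusted p = 5.9e-08). Airn, the noncoding RNA of the Igf2r locus, was lower (-2.67 ± 0.15), Mest (-0.91) and Smoc1 (-1.85). Plagl1 was higher by 1.27. Zfp57, the zinc finger protein that protects methylation of imprinted regions, was higher by 1.83 ± 0.05. Counts do not tell the parental alleles apart.

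**Figure D2:**
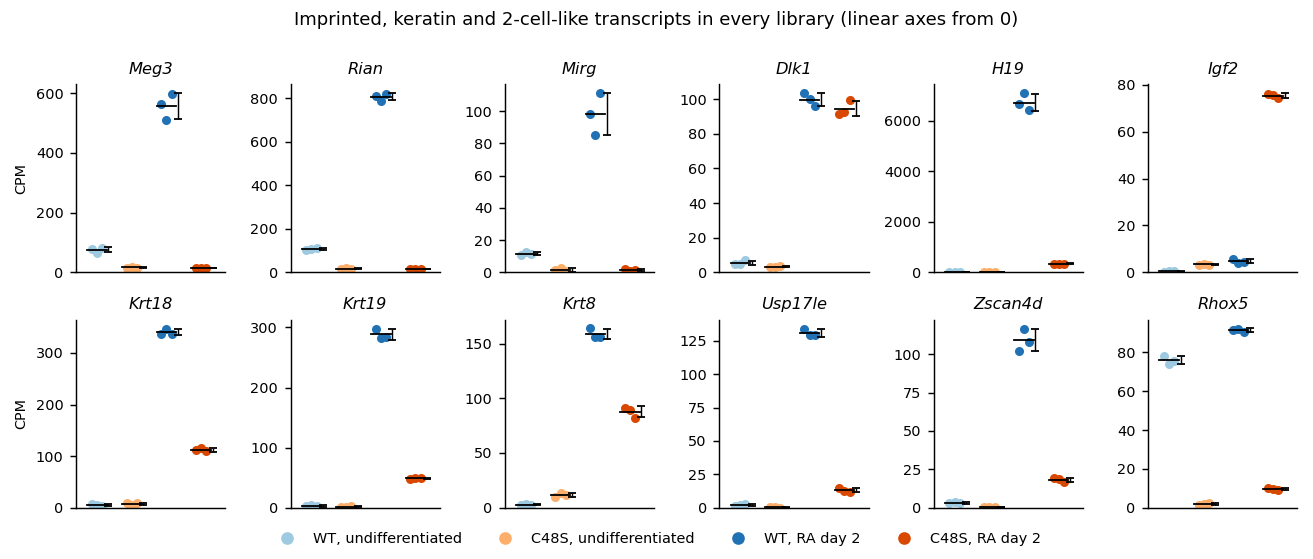
Levels of 12 imprinted, keratin, 2-cell-like and Rhox transcripts in CPM (vertical axes, linear from 0) in the 12 libraries; each point is a library, the line is the mean of 3 and the bar is 1 SD. The C48S points at RA day 2 (dark orange) lie below the WT points (dark blue) for Meg3, Rian, Mirg, H19, the 3 keratins, Usp17le, Zscan4d and Rhox5, above them for Igf2, and overlap with them for Dlk1.

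Among signalling pathways, readouts of ERK, the kinase that FGF activates, were higher: 15 of 21 were higher and 1 lower, with a median of 0.70. Spry4, a feedback inhibitor of receptor kinases, stood at 2.90, 4.80 and 4.79 CPM in the WT libraries and 80.1, 76.8 and 74.3 CPM in the C48S libraries. Etv4 stood at 8.91, 11.1 and 11.1 CPM in the WT libraries and 93.1, 85.0 and 88.8 CPM in the C48S libraries. Etv5, like Etv4 a PEA3-type factor turned on by FGF, stood at 35.9, 33.4 and 31.0 CPM in the WT libraries and 175, 171 and 175 CPM in the C48S libraries. All C48S libraries were above all WT libraries, by 4.19 ± 0.11, 3.09 ± 0.09 and 2.38 ± 0.06. Spry2 was higher by 2.35 and Dusp6, the ERK phosphatase, by 1.30. The immediate early gene Fos was lower (-0.65), and Egr1 stood at 30.4, 29.1 and 32.6 CPM in the WT libraries and 32.5, 31.3 and 29.2 CPM in the C48S libraries, with groups that overlap. Before RA, with the MEK inhibitor in the medium, the list had a median of 0.56; Spry4 was then higher by 5.83, while Etv5 was lower (-0.28).

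FGF ligands and receptors themselves were split, 6 higher and 7 lower of 19. Fgf4, the ligand that ESCs make under Oct4 and Sox2, was higher by 2.01 ± 0.13, from 3.11 ± 0.535 to 12.6 ± 1.7 CPM (SD, n = 3), and Fgf2 by 1.46. Fgf1 stood at 27.1, 27.4 and 27.3 CPM in the WT libraries and 3.77, 3.93 and 5.23 CPM in the C48S libraries, lower (-2.66 ± 0.15). Of the receptors, Fgfr1 was higher by 0.83 ± 0.06 on chromosome 8, and Fgfr2 was lower (-1.98 ± 0.11), from 59.2 ± 1.65 to 15 ± 1.58 CPM (SD, n = 3).

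Genes of the Nodal pathway, which holds the epiblast state and patterns the streak, were higher more often than lower. Of 21 tested, 15 were higher and 2 lower, with a median of 0.63. Activity of the pathway was not measured. The ligand Nodal stood at 29.7, 29.4 and 31.9 CPM in the WT libraries and 87.7, 85.4 and 77.5 CPM in the C48S libraries. Lefty1, an inhibitor and target of Nodal, stood at 17.5, 17.2 and 18.3 CPM in the WT libraries and 136, 133 and 130.4 CPM in the C48S libraries. Lefty2 stood at 23.9, 18.4 and 20.2 CPM in the WT libraries and 88.7, 92.0 and 87.2 CPM in the C48S libraries. The groups did not overlap, and the differences were 1.46 ± 0.07, 2.91 ± 0.10 and 2.10 ± 0.09. The co-receptor Tdgf1 was higher by 1.67, the ligand Gdf3 by 2.10 and the partner factor Foxh1 by 0.81. The effector Smad3 was lower (-0.50) and the receptor Tgfbr1 (-0.72).

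For BMP signalling, 13 of 25 genes were higher and 4 lower. The Id genes, direct BMP targets that block differentiation factors, were higher: Id1 by 1.24 ± 0.11, Id2 by 1.04 and Id3 by 0.47. The ligand Bmp4 was higher by 1.21, from 4.07 ± 0.861 to 9.5 ± 1.22 CPM (SD, n = 3), and Bmp2 was lower (-1.98 ± 0.21), from 9.57 ± 0.89 to 2.39 ± 0.581 CPM. Nog, the secreted BMP antagonist, was lower (-2.66 ± 0.37), at under 4 CPM in every library.

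Wnt targets were split at day 2, 11 higher and 7 lower of 21, with a median of 0.15 against -0.77 before RA. Off the shifted chromosomes the counts at day 2 were 8 and 4 of 14, with a median of 0.30. Axin2, a feedback target of beta-catenin, was lower (-0.34) and Znrf3, which removes Wnt receptors, (-0.94), both on chromosome 11. Sp5, a target on chromosome 2, stood at 9.12, 9.26 and 10.6 CPM in the WT libraries and 1.77, 2.71 and 2.22 CPM in the C48S libraries, a difference of -2.13 ± 0.17. Lef1 was higher by 0.45 and Tcf7l2 by 1.18. Of 41 ligands, receptors and antagonists, 15 were higher and 13 lower. Off the shifted chromosomes these counts were 10 and 10 of 31, with a median of 0.13. Porcn, which acylates Wnt proteins, was higher by 1.35, Wnt5b by 2.12 and the antagonist Sfrp1 by 1.57. The receptor Fzd2 was lower (-1.98) and Wnt9a (-1.34), both on chromosome 11.

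Counts for the other pathways lay nearer to the shares of all genes. LIF and STAT3 genes counted 7 higher and 6 lower of 20. Stat3 itself was lower (-0.57) and its kinase Jak2 (-0.95), while Klf4 and Tfcp2l1, known targets of STAT3, were higher as given above. Notch genes counted 5 and 8 of 23, with Hes1 at 0.11 and not called. Hedgehog genes counted 4 and 5 of 15, with Gli1 (-0.02) and Ptch1 (-0.11), the usual readouts, not called and the antagonist Hhip higher by 2.05. Hippo genes counted 6 and 3 of 21, with the YAP target Ccn2 higher by 0.88.

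**Figure D3:**
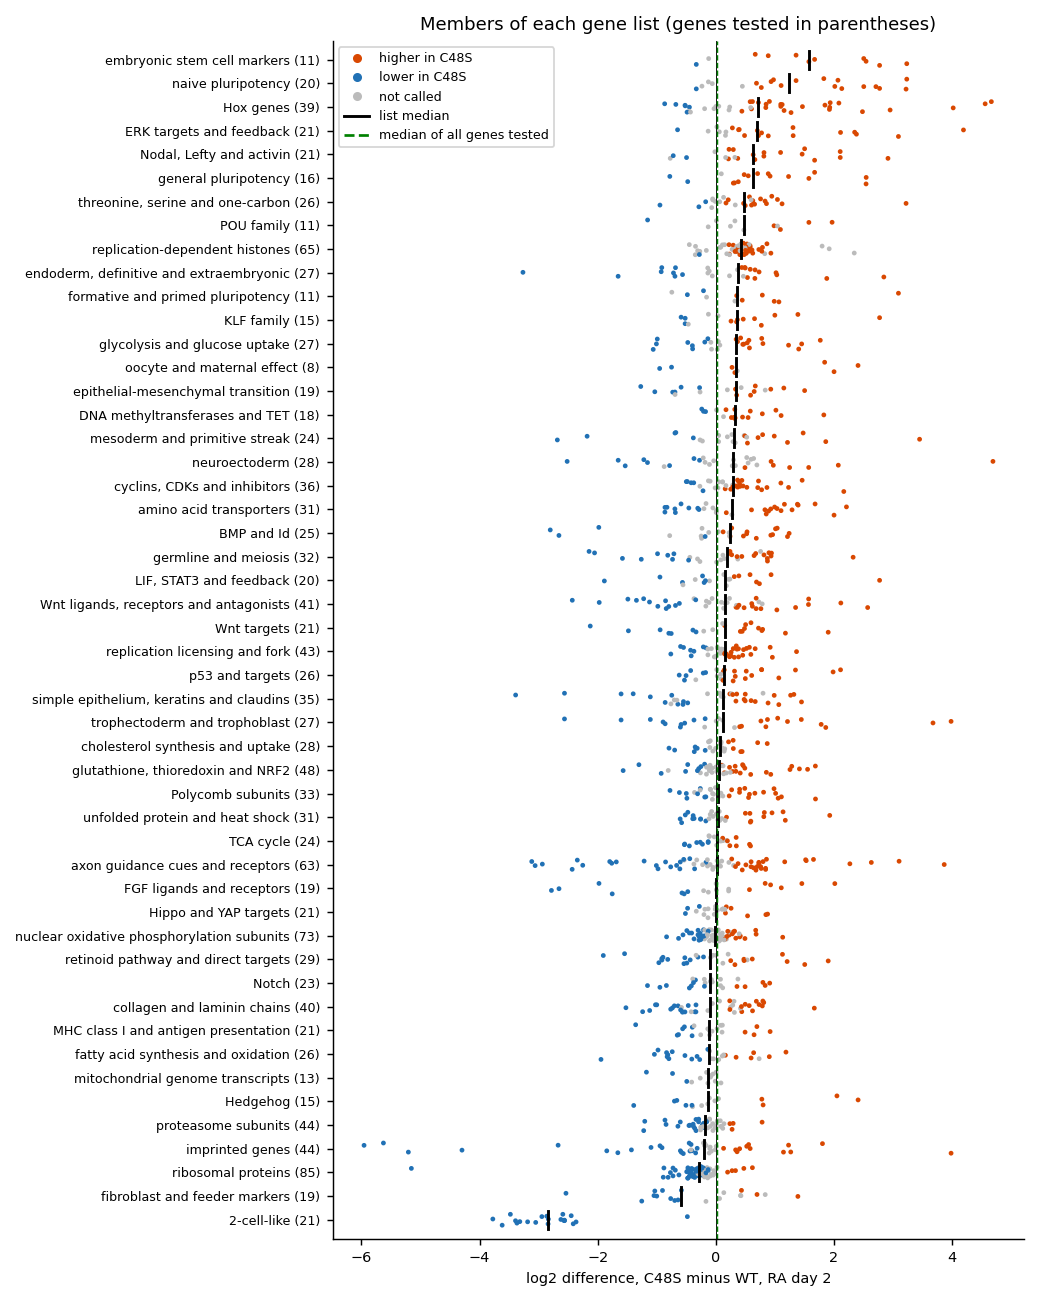
Log2 difference at RA day 2, C48S minus WT (horizontal axis), of every tested member of 50 gene lists (vertical axis, ordered by median); points are genes coloured by their call, black bars are list medians and the dashed line is the median of all genes tested. The ESC marker and naive pluripotency lists lie highest, with medians of 1.57 and 1.23, and the 2-cell-like list lies lowest at -2.84. The ESC marker and naive lists share members, among them Nanog, Esrrb and Klf4.

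Of 27 glycolysis genes, 14 were higher and 8 lower, but the median of 0.34 fell to 0.05 over the 18 genes off the shifted chromosomes. Slc2a3, a high-affinity glucose transporter on chromosome 6, stood at 1121, 1069 and 1038 CPM in the WT libraries and 2816, 2965 and 2749 CPM in the C48S libraries. Hk2, a hexokinase on the same chromosome, was higher by 1.23. Pfkp, a phosphofructokinase on chromosome 13, stood at 82.8, 75.7 and 80.6 CPM in the WT libraries and 225, 213 and 215 CPM in the C48S libraries, a difference of 1.45 ± 0.06, and Slc2a1 on chromosome 4 was higher by 0.56. Pfkfb3 was lower (-0.99) and Aldoc (-1.01).

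Genes of respiration differed little. TCA cycle genes counted 7 higher and 8 lower of 24, with differences between -0.53 and 0.59. Nuclear subunits of oxidative phosphorylation counted 14 and 19 of 73, a median of -0.02. Of 13 protein-coding transcripts of the mitochondrial genome, 3 were lower and none higher: mt-Co1 (-0.49), mt-Nd6 (-0.73) and mt-Nd3 (-1.18).

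One-carbon metabolism counted 15 higher and 3 lower of 26, with a median of 0.48. Beside Tdh, Amt of the glycine cleavage system was higher by 1.12, Shmt2 by 0.76 and Psat1 by 0.57. Gldc, the decarboxylase of the same cleavage system, was lower (-0.95 ± 0.06). Amino acid transporters counted 16 and 9 of 31: Slc7a7 was higher by 2, Slc6a6 by 1.38 and Slc38a2 by 1.29, and Slc38a4 was lower (-0.69). Asns, the asparagine synthetase that ATF4 turns on, was higher by 1.93 ± 0.05, from 134 ± 1.18 to 511 ± 18.9 CPM (SD, n = 3), and Atf4 by 0.95.

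Of 26 fatty acid genes, 13 were lower and 6 higher, with a median of -0.12. Off the shifted chromosomes 7 of 19 were lower and 5 higher, with a median of -0.04. Fads2, the delta-6 desaturase, stood at 359, 352 and 324 CPM in the WT libraries and 90.6, 91.0 and 87.4 CPM in the C48S libraries. Scd2, a stearoyl-CoA desaturase, stood at 2324, 2221 and 2219.8 CPM in the WT libraries and 1285, 1336 and 1275 CPM in the C48S libraries. Both were lower without overlap (-1.95 ± 0.06 and -0.80 ± 0.04), and Scd1 was lower (-0.81); all 3 lie on chromosome 19, where the median was 0.06. Acaca and Fasn, the first steps of synthesis, were lower (-0.83 and -0.52) and lie on chromosome 11. Elovl6, an elongase, was higher by 1.19. Cholesterol genes were even, 7 higher and 7 lower of 28, and Hmgcs1, which makes HMG-CoA, did not pass the test (0.09).

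The series names the redox sensitivity of Oct4 in its title, and genes of thiol defence were listed for that reason. Of 48, 18 were higher and 9 lower, with a median of 0.05, and off the shifted chromosomes 14 and 8 of 41, with a median of 0.03. Srxn1, the sulfiredoxin that repairs peroxiredoxins, stood at 23.5, 23.8 and 19.8 CPM in the WT libraries and 65.5, 68.3 and 63.6 CPM in the C48S libraries. Gsto1, a glutathione transferase, stood at 46.9, 47.8 and 45.9 CPM in the WT libraries and 151, 146 and 155 CPM in the C48S libraries. Gsr, the glutathione reductase, stood at 29.5, 30.0 and 29.2 CPM in the WT libraries and 82.8, 79.6 and 74.3 CPM in the C48S libraries. The differences were 1.55 ± 0.08, 1.68 ± 0.06 and 1.41 ± 0.06; Gsr lies on chromosome 8, as do Hmox1 (higher by 1.28) and Nqo1 (higher by 1.25). Gpx3, a secreted peroxidase, stood at 248, 267 and 251 CPM in the WT libraries and 91.2, 83.0 and 83.8 CPM in the C48S libraries, a difference of -1.57 ± 0.06, on chromosome 11. The NRF2 target Gclm was higher by 0.34. Txnip, which binds thioredoxin, did not pass the test (0.04).

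Cell cycle genes were higher more often than lower, and ribosomal protein genes lower more often than higher. Cyclins, kinases and inhibitors counted 21 higher and 5 lower of 36, and replication genes 22 and 8 of 43. Ccnd2, a D-type cyclin on chromosome 6, was higher by 2.17 ± 0.05, Mycn by 1.10, and the inhibitors Cdkn1a and Cdkn1b by 0.77 and 1.46. p53 targets counted 15 and 6 of 26, with Trp53 itself at 0.09 and not called. Ribosomal protein genes were lower in 58 of 85 cases and higher in 5, with a median of -0.29. The widest of them was Rpl39l, a copy of Rpl39 named after its value was seen, at 11.8, 11.8 and 12.99 CPM in the WT libraries and 0.154, 0.468 and 0.396 CPM in the C48S libraries and lower (-5.15). Proteasome genes were lower in 21 of 44 cases and higher in 4, with a median of -0.18, and off the shifted chromosomes lower in 13 of 32 and higher in 3, with a median of -0.10. The proteasome list was drawn by symbol and includes Psmc3ip, a recombination factor. Ribosomal protein genes have many near-identical copies in the genome, among which reads can be split.

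Replication-dependent histone genes, whose messages lack a poly(A) tail and are retained by ribosomal RNA depletion, were higher in 37 of 65 cases and lower in 1, with a median of 0.42. They too have near-identical copies. Of 33 Polycomb genes 14 were higher and 8 lower. Jarid2, the subunit that recruits the repressive complex in ESCs, stood at 255, 256 and 254 CPM in the WT libraries and 814, 829.6 and 818 CPM in the C48S libraries, a difference of 1.69 ± 0.04. Mtf2 was higher by 1.05, and Ezh2 and Phc1, both on chromosome 6, by 0.98 and 1.11. Suz12, on chromosome 11, was lower (-0.26). Of 18 genes of DNA methylation 13 were higher and 3 lower: Tet1 and Tet2, which oxidise methylcytosine, were higher by 0.58 and 1.10, and Dnmt1 by 0.17, while Uhrf1 was lower (-0.17).

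Guidance cues and receptors, which also sort cells at early boundaries, changed widely in both directions, 26 higher and 21 lower of 63. Epha2, an ephrin receptor of ESCs, stood at 43.3, 43.7 and 42.6 CPM in the WT libraries and 376, 370.3 and 366 CPM in the C48S libraries. Plxna2, a semaphorin receptor, stood at 106, 109.5 and 118 CPM in the WT libraries and 20.2, 18.4 and 22.8 CPM in the C48S libraries. Dcc, the netrin receptor, stood at 24.7, 25.6 and 22.3 CPM in the WT libraries and 3.23, 2.81 and 2.62 CPM in the C48S libraries. None of these groups overlapped, and the differences were 3.1 ± 0.05, -2.43 ± 0.08 and -3.06 ± 0.15. The netrin Ntn1 was lower (-2.35) and Slit3 (-2.94), both on chromosome 11, and Robo1, a Slit receptor on chromosome 16, (-1.22). Robo4 stood at 0.622, 0.429 and 1.17 CPM in the WT libraries and 10.1, 10.6 and 11.6 CPM in the C48S libraries, higher by 3.87 ± 0.24. Collagen and laminin chains counted 13 higher and 17 lower of 40.

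Antigen presentation genes counted 4 higher and 7 lower of 21. H2-K1, a classical class I heavy chain, stood at 259, 236 and 233 CPM in the WT libraries and 94.0, 92.2 and 97.6 CPM in the C48S libraries, a difference of -1.36 ± 0.05, while B2m, its partner chain, was at 0.10 and not called. Before RA 13 of the 21 were higher in C48S (27.5% of all genes were) and none lower, and for 14 of 21 the difference became more negative with RA (17.2% of all genes tested did).

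Markers of other cells were read over whole lists. The 11 ESC markers summed to 711 to 764 CPM in the WT and 1376 to 1425 CPM in the C48S libraries, with 9 of 11 higher. Most of these markers are also members of the pluripotency lists above. The 19 fibroblast markers summed to 796 to 821 CPM in WT and 744 to 747 CPM in C48S, with 3 higher and 10 lower. Of its defining genes, Postn was under 1 CPM in every RA library, Dcn under 8 CPM, and Col1a1 stood at 72.7, 71.2 and 80.8 CPM in the WT libraries and 78.4, 81.7 and 74.6 CPM in the C48S libraries, with groups that overlap. The part of a changed mix of cells in the differences above was not tested.

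Some of the widest differences were those of protein-coding genes outside these lists. Ffar3, a receptor for short-chain fatty acids, stood at 0.104, 0.172 and 0.195 CPM in the WT libraries and 13.5, 13.9 and 11.6 CPM in the C48S libraries, the largest fitted rise among the protein-coding genes tested (6.26 ± 0.32). Htr5a, a serotonin receptor, had 2 reads in WT and 167 in C48S, a ratio of 72.5 with a 95% counting interval of 19.8 to 604. Rerg, a Ras-related gene on chromosome 6, had 3 and 132 reads, a ratio of 38.2 (12.8 to 188). Lrrc31 was higher by 4.22. On the other side, 1700013H16Rik, an X-linked gene, stood at 144, 148 and 147 CPM in the WT libraries and 1.54, 1.03 and 1.03 CPM in the C48S libraries. Usp26, an X-linked deubiquitinase of the testis, stood at 112, 109.6 and 109 CPM in the WT libraries and 2.54, 2.99 and 2.22 CPM in the C48S libraries. Zfy1, on the Y chromosome, stood at 17.4, 18.3 and 19.2 CPM in the WT libraries and 0.384, 0.187 and 0.238 CPM in the C48S libraries. These genes were already lower before RA, with differences of -8.01, -5.45 and -6.50. Kynu, a kynurenine pathway enzyme, had 122 reads in WT and 2 in C48S, a ratio of 70.2 (19.03 to 586), and was at 0.028 ± 0.0485 CPM in undifferentiated WT cells (SD, n = 3). Xlr5b, Xlr5c and Pramel5 also fell from 54 to 160 reads in WT to 1 to 3 in C48S, and Olfr316 from 58 to 0, at least 22.3-fold; the intervals cover counting error only. Slfn3 on chromosome 11 was lower (-5.41).

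The comparison of undifferentiated cells shares no library with that at RA day 2, so both can be set side by side. Of the 9785 genes called at day 2 (54.5% of those tested), 5156 (52.7%) were also called before RA in the same direction, and 1300 in the opposite direction. These are 51.7% of the 9970 genes called before RA (55.6% of those tested). Across all genes tested the differences of both states correlated at r = 0.506; genes are not independent replicates, and the value is a description. The change in the difference itself was called for 7071 genes (39.4%), and for 7771 without the undifferentiated C48S library that stood apart. Of the 7071, the difference was more positive at day 2 for 3990 and more negative for 3081. In the naive pluripotency list the difference became more positive for 16 of 20 and more negative for 0, against 22.2% and 17.2% of all genes. Before RA the same list had 8 genes higher and 9 lower, with a median of -0.05. Nanog was lower (-0.32) before RA and higher by 2.50 at day 2, and Sox2 went from -0.28 to 2.54. For the 2-cell-like list the change was called for 1 gene of 21.

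**Figure D4:**
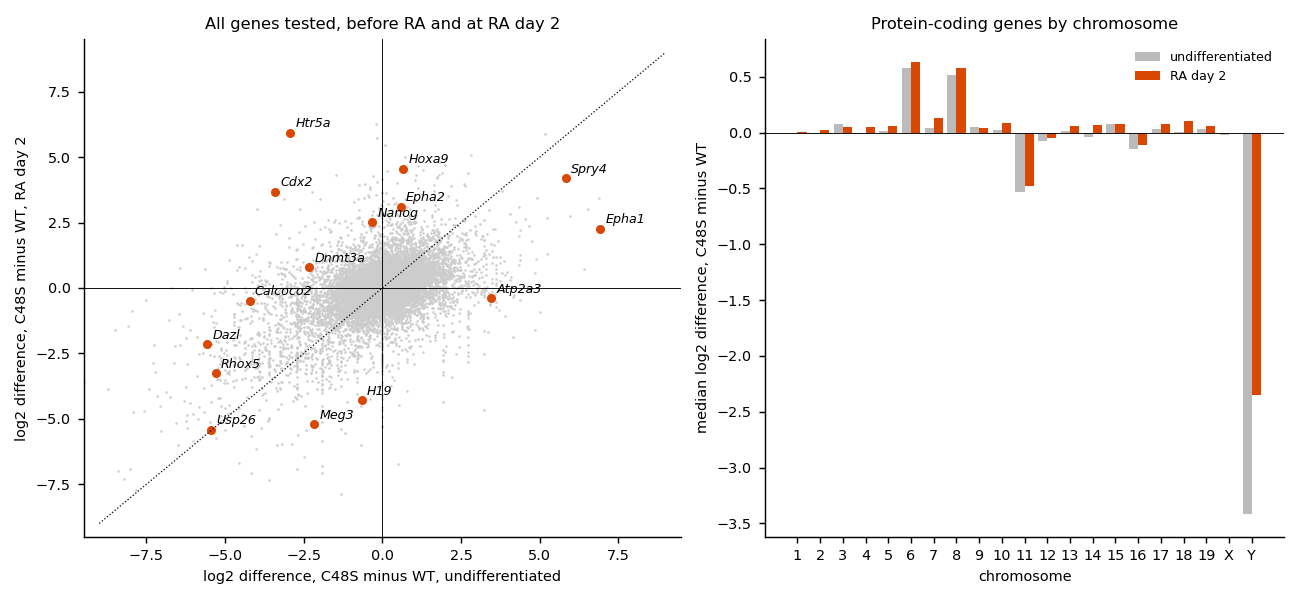
Left, log2 difference C48S minus WT at RA day 2 (vertical axis) against that before RA (horizontal axis) for the 17940 genes tested, with 15 genes named and the line of equal differences dotted; right, the median difference of protein-coding genes by chromosome in both states. Cdx2 and Htr5a lie in the upper left, lower before RA and higher at day 2, while Usp26 lies on the line, and chromosomes 6, 8, 11 and Y stand apart in both states.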

How the data were processed

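RNA-seq of ribosomal RNA-depleted total RNA from 12 libraries was analysed, 3 in each of 4 groups. The deposited files hold raw counts of reads per gene for 55416 genes, which the authors made with featureCounts 1.6.3 with strand option 2 on Ensembl GRCm39 release 104, per the file headers. Reads were aligned with STAR 2.7.9a to mm39, and DESeq2 is also named, per the submitters' processing notes. Symbols came from GENCODE M21 by gene ID for 94.1% of genes.

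The tests used edgeR 4.0.16 under R 4.3.3. Genes were kept by filterByExpr with a minimum count of 10, scaled by TMM, fitted over all 12 libraries with 1 mean per group (glmQLFit, robust) and tested with glmQLFTest, with Benjamini-Hochberg adjustment over all 17940 genes. An interaction contrast tested whether the difference changed with RA. CPM were computed here from the counts of each library, over its total for the genes kept by the filter, scaled by its TMM factor. Total counts of 8678088 to 13597098 set the precision. For the medians by chromosome, protein-coding genes averaging at least 1 CPM were used.

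Named genes were Pou5f1, the 10 largest called rises and 10 largest falls among protein-coding genes of 1 CPM or more, and the leading genes of each list. They also were up to 5 further members of each list by adjusted p, 2 members that went against its majority, and 5 changes of the difference in each direction. The members, the 50 lists and the tests were chosen with earlier results of these data known. Alternatives were RLE scaling, DESeq2 1.42.0, other filters, protein-coding genes alone, leaving out chromosomes 6, 8, 11 and Y, a null fold of 1.5, the replicate block, the 6 RA libraries alone, and leaving out each library. Some genes are not reported here. Near-identical gene copies are uncertain, since their reads can be split or dropped in counting.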

Additional observations from a re-analysis of the deposited data

Results flagged for a closer look

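The difference between C48S and WT was itself compared between RA day 2 and the undifferentiated state, with an interaction contrast in edgeR's quasi-likelihood test. At a Benjamini-Hochberg adjusted p under 0.05 it was more positive at day 2 for 3990 genes and more negative for 3081. Values below are the change in the log2 difference from before RA to day 2, and in parentheses the difference before RA and then at day 2. One undifferentiated C48S library stood apart, and each change was also called without it, with values from -4.91 for Postn to 9.0 for Htr5a.

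Among the changes of smallest adjusted p, the difference rose for the de novo DNA methyltransferase Dnmt3a by 3.12 (-2.33 to 0.79), for Nanog by 2.82 (-0.32 to 2.50) and for Epha2 by 2.52 (0.58 to 3.1). It rose for the autophagy receptor Calcoco2 by 3.74 (-4.22 to -0.48) and for the interferon-induced Rnf213 by 3.11 (-3.51 to -0.40), both on chromosome 11. It changed for Atp2a3, a calcium pump, (-3.85) (3.46 to -0.39) and for Ccnjl (-3.81) (3.69 to -0.12), also on chromosome 11. For Peg10 the change was -1.95 (1.35 to -0.60), for Dapk1 -2.10 (2.53 to 0.43) and for Txnip -1.77 (1.81 to 0.04).

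Some genes were called at 2-fold or more in opposite directions in the 2 states. Those lower in C48S before RA and higher at day 2 were Cdx2 with a change of 7.10 (-3.42 to 3.67), Htr5a with 8.87 (-2.93 to 5.94), Prdm14 with 3.81 (-1.68 to 2.13), Sema6a, a semaphorin, with 3.74 (-2.23 to 1.52), Cldn3 with 2.7 (-1.43 to 1.26), Zic5 with 2.59 (-1.02 to 1.57) and Cox7a1 with 2.21 (-1.07 to 1.13). Those higher before RA and lower at day 2 were Postn, a matrix protein, with -4.87 (2.33 to -2.54), Dll1 with -2.61 (1.46 to -1.16) and Col1a2, a fibrillar collagen chain, with -2.32 (1.32 to -1.0). Postn and Col1a2 are members of the fibroblast list, whose median difference was 0.49 before RA and -0.58 at day 2. Htr5a and Postn rest on few reads: Htr5a had 2 in the WT RA libraries together, and Postn 5 in the C48S RA libraries together.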

How the results depend on the processing

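The counts of called genes (5168 higher and 4617 lower at day 2, 7071 with a changed difference) stayed within 1.5 times under every alternative run but one: against a fold of 1.5 as the null, 1420, 1532 and 2257 remained past the threshold. They were 4629, 5072 and 7015 with RLE scaling, which moved the median of all genes (-0.045), and 4257, 4664 and 6478 with DESeq2. Leaving out each library in turn gave 4432 to 5578 higher, 4224 to 5159 lower and 6420 to 7771 with a changed difference. Genes called both at first and under an alternative had the same direction in every alternative. Without chromosomes 6, 8, 11 and Y, 3782, 3534 and 5703 of 14689 genes were called. The median of the FGF ligands and receptors, 0.00, turned to -0.11 without C48S RA replicate 3 and to -0.19 without WT RA replicate 3, the lowest of a range that reached 0.05 over all libraries left out; the cause was not tested. Of 50 list medians, 46 moved by more than the spread between libraries under at least 1 alternative, 25 of them with RLE scaling and 39 when 1 library was left out. That of the retinoid genes, -0.09, went to -0.14 with RLE scaling, with DESeq2 and without WT RA replicate 2. The medians of 6 lists, all within 0.043 of 0, changed sign under at least 1 alternative: those of FGF, Hippo, TCA cycle, unfolded protein, Polycomb and guidance genes. No named gene that was called changed sign. Changes of sign were not counted for genes called in neither run. Of 232 genes named, 43 lost their call under the null fold of 1.5. Under every other alternative run, 225 kept their side of the threshold. The other 7 were Dppa5a, Hoxa13 and Hoxd13, which lost their call under at least 1, and Ccnjl, Hmgcs1, Lin28a and Trp53, which passed the threshold under at least 1 alternative.

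With the replicate number as a block, 5088 genes were higher, 4550 lower and 6938 had a changed difference. Deviations of same-numbered libraries correlated between -0.0529 and 0.029, so the numbers were not taken to pair the libraries.

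With 8678088 to 11954255 reads in an RA library, 1464 of 1534 list entries reached the filter on low counts. A comparison of 1 clone with 1 WT line cannot tell the C48S change from other differences between them.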

Other observations

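Transcription factor families related to Oct4 and Klf4 were read in full. Of 11 POU genes tested, 4 were higher and 1 lower. Of 15 KLF genes, 9 were higher and 3 lower, with a median of 0.35.

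Before RA the differences between the lines were about as many as at day 2: 27.5% of genes tested were higher in C48S and 28.1% lower. The chromosomes that were shifted at day 2 were shifted before RA too, and the called genes lay there more often than the tested genes, with 24.1% of calls at day 2 and 18.1% of tested genes on chromosomes 6, 8, 11 and Y.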
